A study of Homo sapiens with 18 samples.

Results

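HMOX1 encodes heme oxygenase 1, the inducible enzyme that breaks heme down to biliverdin, carbon monoxide and iron. It was described here together with 7 other genes of the oxidative stress response: AKR1C1, AKR1C3 and AKR1B10 (aldo-keto reductases that reduce reactive carbonyls, steroids and retinals), NQO1 (a quinone reductase), GCLC and GCLM (the catalytic and modifier subunits of glutamate-cysteine ligase, which makes the first step of glutathione synthesis) and TXNRD1 (cytosolic thioredoxin reductase). The 8 genes were taken by symbol from the annotation of the array, out of 11963 genes with a probe set that names exactly 1 gene. They had 13 probe sets, and for each gene the probe set with the highest mean over all 18 arrays stood for the gene. That mean uses all groups alike. The list itself was chosen by symbol with the signals of these arrays already known, so the tests below describe its genes and are no independent evidence that they stand out. All 8 genes passed the filter on dim probe sets, each through its mean over all arrays.

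NRF2, the product of NFE2L2, is a transcription factor that is normally bound by KEAP1 and passed to the CUL3 ubiquitin ligase for degradation. Electrophiles and oxidants release it, and with a small MAF protein it binds antioxidant response elements near genes such as the 8 described here. HMOX1 is also repressed by the heme-binding factor BACH1 and answers to several other stress pathways, so it can move with NRF2 targets or apart from them.

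The cells were U251, an established human glioblastoma line, measured on Affymetrix expression arrays of 22277 probe sets, with 2 arrays in each of 9 groups. The groups were cells given an siRNA against MPS1 (siMPS1), cells transfected with a negative siRNA (siNeg) and cells left untransfected (Control), each at 6, 24 and 48 h. MPS1 is the spindle checkpoint kinase encoded by TTK, and 2 pmol of siRNA was used for transfection. Nothing in the labels says that both arrays of a group stand for separate cultures, so the p-values measure only the spread between these arrays, which may be technical. Values for single arrays are the deposited log2 signals, and differences are log2 fold changes from limma on the signal plus a pseudocount of 3, with their SE. Genes with an adjusted p under 0.05, over the 7828 tested, are described as called. The pseudocount makes the changes of dim genes, AKR1C3 and AKR1B10 among these, smaller than those of the deposited values.

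TTK, the target, was lower in siMPS1 than in siNeg cells, with log2 fold changes of -1.43 at 6 h, -1.88 at 24 h and -2.30 at 48 h, called each time. Of 7 markers listed for glioblastoma lines, VIM, CD44, NES, SOX2 and TNC lay above the array median in all 18 arrays, GFAP did so in 3 and S100B in 0. None of the 8 measured markers of other cell types did so in any array. The siNeg arrays at 48 h stood apart in probe sets that are not genes of the response. Their 18S rRNA signal averaged 9.47, against 10.08 to 11.15 in the other 8 groups; the siMPS1 arrays at 48 h (11.13) and the siNeg arrays at 24 h (11.15) lay above the remaining groups, which reached 10.36. The dap spike signal of the siNeg arrays at 48 h averaged 5.39, against 6.12 to 7.29. The siMPS1 arrays at 48 h had an actin 3' minus 5' difference of 0.895, against 0.117 to 0.427 in the other groups. What part these differences have in the results at 24 and 48 h was not tested. The 48 h value of siMPS1 against Control, which does not use the siNeg arrays, is given for each of the 8 genes and for the other genes named for siMPS1 against siNeg at that time. In extracts of whole cultures, fewer cells with a transcript and less transcript per cell cannot be told apart.

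AKR1C1 and AKR1C3, which lie near each other on chromosome 10, are shown because they had the largest differences beside HMOX1, and GCLM and TXNRD1 because their windows held a motif. The 250 bases before the start of each gene, from RefSeq with the build GRCh38.p14, are shown for these 4 genes. In the AKR1C pair the capitals mark the longest stretch that both windows share, 19 bases, and over the whole alignment 69.5% of 266 positions were identical. In GCLM and TXNRD1 the capitals mark a match, read on the other strand, to the core TGACNNNGC of the antioxidant response element.
AKR1C1 (chr10:4963165-4963414, plus strand): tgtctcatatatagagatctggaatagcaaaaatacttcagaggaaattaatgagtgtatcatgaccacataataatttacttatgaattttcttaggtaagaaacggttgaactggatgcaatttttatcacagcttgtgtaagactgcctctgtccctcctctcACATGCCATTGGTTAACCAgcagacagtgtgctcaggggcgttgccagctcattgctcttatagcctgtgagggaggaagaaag
AKR1C3 (chr10:5094164-5094413, plus strand): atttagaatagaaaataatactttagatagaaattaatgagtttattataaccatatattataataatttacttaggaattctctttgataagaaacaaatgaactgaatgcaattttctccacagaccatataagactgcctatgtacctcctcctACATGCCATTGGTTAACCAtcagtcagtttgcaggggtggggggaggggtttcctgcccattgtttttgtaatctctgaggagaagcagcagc
GCLM (chr1:93909431-93909680, minus strand): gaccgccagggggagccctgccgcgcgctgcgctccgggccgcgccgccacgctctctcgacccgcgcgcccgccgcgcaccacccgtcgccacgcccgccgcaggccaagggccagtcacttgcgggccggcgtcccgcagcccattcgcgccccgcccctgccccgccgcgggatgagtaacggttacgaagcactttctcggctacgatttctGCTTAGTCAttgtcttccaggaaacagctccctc
TXNRD1 (chr12:104286782-104287031, plus strand): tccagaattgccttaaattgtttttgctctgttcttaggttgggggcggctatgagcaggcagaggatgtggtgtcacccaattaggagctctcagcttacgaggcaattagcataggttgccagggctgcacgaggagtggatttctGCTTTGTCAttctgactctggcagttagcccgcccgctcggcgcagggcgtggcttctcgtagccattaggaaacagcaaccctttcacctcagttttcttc
Of the 8 genes, 6 had an entry in the promoter table, and HMOX1 and AKR1B10 had none. AKR1C3 and TXNRD1 each had a second window, not shown. The core was found on either strand in the windows of 2 of these 6 genes, GCLM at 34 to 26 bases before the start and TXNRD1 in both of its windows. By window that was 3 of the 8 windows of these genes, where 10.9% of the 35116 windows of the table held it. A match describes these letters only. The windows of AKR1C1, AKR1C3, GCLC and NQO1 did not hold them.

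HMOX1 had its lowest signal in the siNeg arrays at 48 h and its highest in the siNeg arrays at 24 h. At 6 h its log2 signal was 9.29 and 9.31 in siMPS1, 9.20 and 9.18 in siNeg, and 9.10 and 9.04 in Control. At 24 h it was 9.82 and 9.66 in siMPS1, 10.18 and 10.34 in siNeg, and 9.92 and 10.00 in Control. At 48 h it was 9.89 and 9.88 in siMPS1, 7.73 and 7.89 in siNeg, and 9.55 and 9.41 in Control. The order of the 9 group means, from high to low, was siNeg 24 h, Control 24 h, siMPS1 48 h, siMPS1 24 h, Control 48 h, siMPS1 6 h, siNeg 6 h, Control 6 h and siNeg 48 h. The 2 arrays of each group did not overlap with those of the next group in that order. The gaps between neighbouring means ran from 0.071, between Control 24 h and siMPS1 48 h, to 0.304, except for the last one, which was 1.26.

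**Figure D1:**
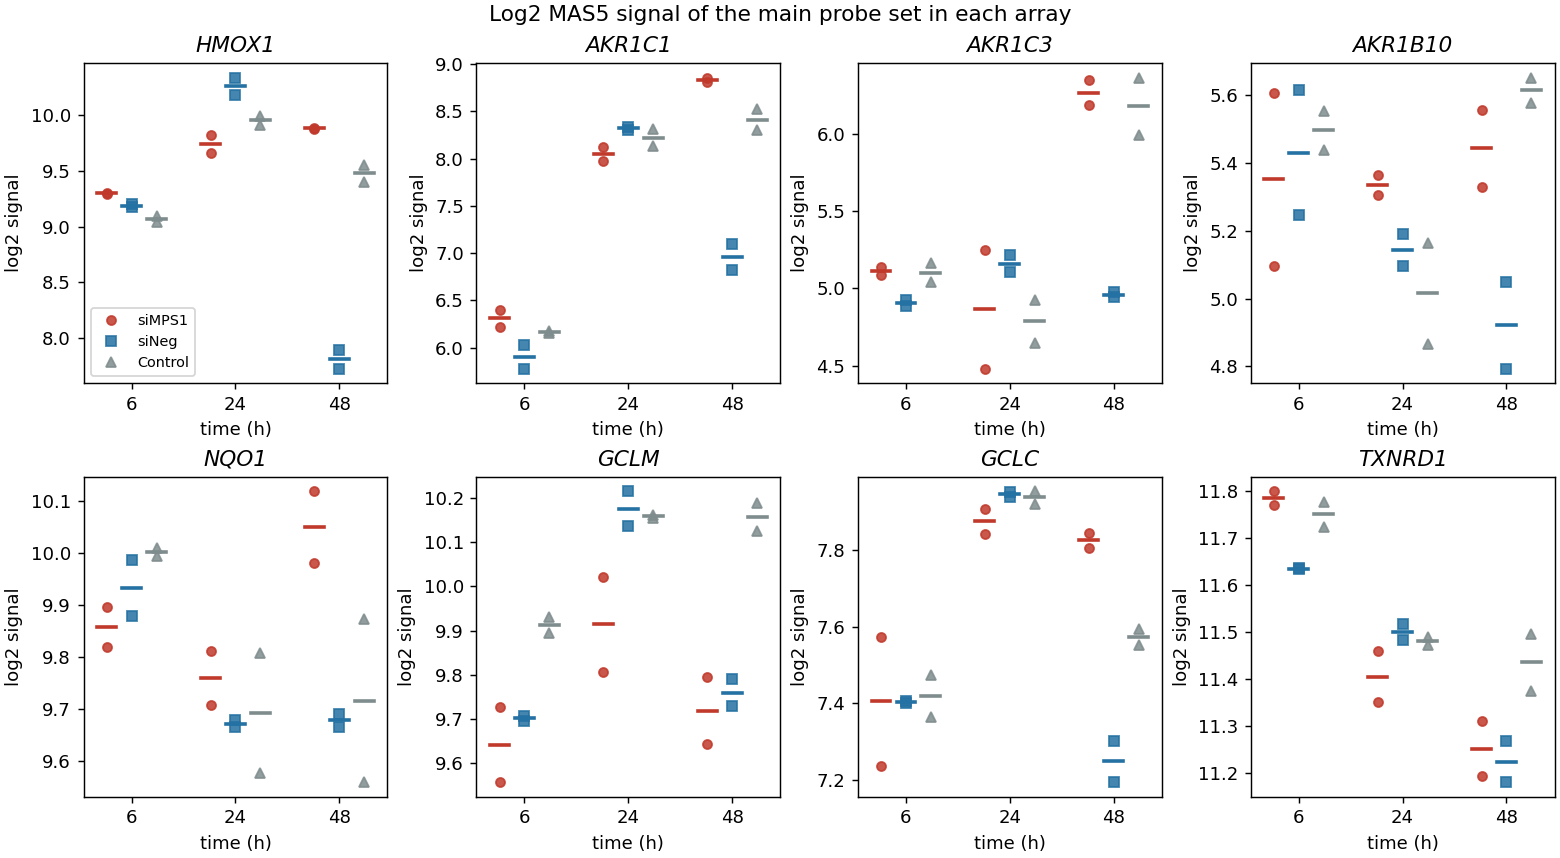
Log2 MAS5 signal (vertical axis, with its own scale in each panel) of the main probe set of the 8 genes in each of the 18 arrays, against time (6, 24 and 48 h). Points are single arrays, short lines are means of 2 arrays, and the groups run siMPS1, siNeg and Control from left to right; the siNeg arrays at 48 h lie at 7.73 and 7.89 for HMOX1 and at 7.10 and 6.83 for AKR1C1.

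Against siNeg, the difference in HMOX1 turned with time. At 6 h the siMPS1 minus siNeg log2 fold change was 0.11 (SE 0.08, adjusted p = 0.42). At 24 h HMOX1 was lower in siMPS1 than in siNeg cells, at -0.52 (SE 0.08, adjusted p = 0.000199), which left 69.8% of the signal in siNeg. The 18S rRNA signal at 24 h averaged 10.36 in siMPS1, 11.15 in siNeg and 10.18 in Control, and its part in this result was not tested. At 48 h it was higher in siMPS1 than in siNeg cells by 2.06 (SE 0.08, adjusted p = 5.79e-12), a fold of 4.18 with a 95% interval on the log2 scale from 1.90 to 2.22. That was the smallest p of the 7828 genes. The response at 48 h exceeded that at 24 h by 2.58 (SE 0.11, adjusted p = 4.73e-11), and the response at 24 h was below that at 6 h by a log2 difference of -0.63 (SE 0.11, adjusted p = 0.003).

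The same 48 h level of HMOX1 against Control was much closer. The siMPS1 minus Control log2 fold change at 48 h was 0.40 (SE 0.08, adjusted p = 0.000694), and the siNeg minus Control log2 fold change was -1.66 (SE 0.08, adjusted p = 2.42e-10). The difference of siMPS1 from siNeg at 48 h thus holds both a signal in siNeg of 31.7% of that in Control and a signal in siMPS1 of 132% of that in Control. These comparisons share arrays, so they are given side by side and were not compared with each other. At 24 h the siNeg minus Control value was 0.30 (adjusted p = 0.0593) and the siMPS1 minus Control value was -0.21 (adjusted p = 0.0714), neither past the threshold. At 6 h HMOX1 was called in siMPS1 against Control, at 0.23 (SE 0.08, adjusted p = 0.0435), but median centring of the arrays took this value to 0.0369 (adjusted p = 0.786), which moved the median of all genes to -0.156 there. The call was also lost without each of 9 single arrays, both arrays of Control, siMPS1 and siNeg at 6 h among them.

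The other members did not all follow HMOX1. At 6 h 1 of the 8 genes was called in siMPS1 against siNeg, where 7.70% of all genes were called, and at 24 h 2 of 8, where 10.9% were. At 48 h 5 of 8 were called and all 5 were higher, where 29.2% of all genes were called in either direction and 15.7% were higher. The median log2 fold change of the 8 genes at 48 h was 0.525, against 0.0256 for all genes. In siNeg against Control 0 of 8 were called at 6 h (3.82% of all genes) and 0 of 8 at 24 h (0.933%) in limma, with 2 and 1 of the 8 at an unadjusted p under 0.05. At 48 h 7 of 8 were called and all 7 were lower, where 12.9% of all genes were called in either direction and 6.11% were lower. Their median was -0.520, against 0.0141 for all genes. In siMPS1 against Control 2 of 8 were called at 6 h (16.6% of all genes), 1 at 24 h (12.7%) and 6 at 48 h (27.5%). Of those 6, 4 were higher and 2 lower, where 15.3% and 12.2% of all genes were.

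**Figure D2:**
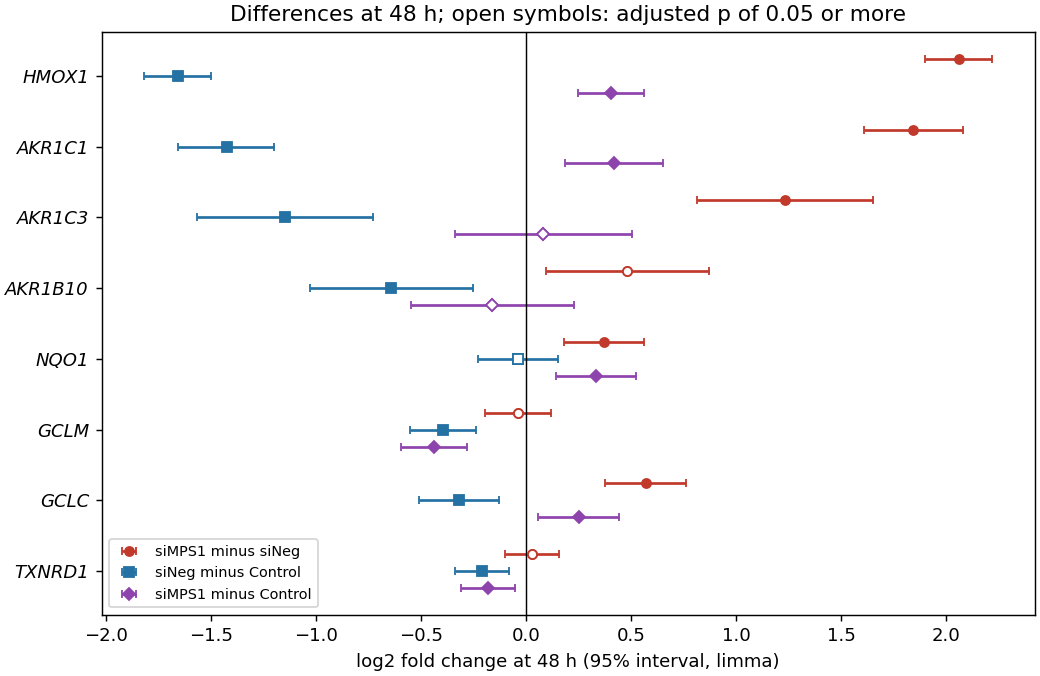
Log2 fold changes at 48 h with 95% intervals from limma (horizontal axis) for the 8 genes (rows), for siMPS1 minus siNeg (circles), siNeg minus Control (squares) and siMPS1 minus Control (diamonds); filled symbols passed an adjusted p of 0.05. HMOX1, AKR1C1 and AKR1C3 lie at 2.06, 1.84 and 1.23 for siMPS1 minus siNeg and at -1.66, -1.43 and -1.15 for siNeg minus Control, while GCLM and TXNRD1 lie near 0 for siMPS1 minus siNeg.

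AKR1C1, which reduces steroids and lipid aldehydes, was the member nearest to HMOX1 in size at 48 h. Its log2 signal at 6 h was 6.22 and 6.40 in siMPS1, 6.02 and 5.78 in siNeg, and 6.17 and 6.15 in Control. At 24 h it was 7.97 and 8.12 in siMPS1, 8.34 and 8.30 in siNeg, and 8.13 and 8.31 in Control. By 48 h the AKR1C1 signal was 8.86 and 8.81 in siMPS1, 7.10 and 6.83 in siNeg, and 8.52 and 8.30 in Control. All 3 treatments were therefore low at 6 h, and at 48 h the siNeg arrays lay between the 6 h arrays and all others. The siMPS1 minus siNeg log2 fold change at 48 h was 1.84 (SE 0.11, adjusted p = 2.11e-09), a fold of 3.59. The siNeg minus Control value was -1.43 (SE 0.11, adjusted p = 2.20e-07) and the siMPS1 minus Control value was 0.42 (SE 0.11, adjusted p = 0.00889). That last call was lost without siMPS1 48 h replicate 1 (0.395, adjusted p = 0.056), without Control 48 h replicate 2 (0.307, adjusted p = 0.121) and when the probe sets of the gene were averaged (0.185, adjusted p = 0.253).

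AKR1C1 was also the gene called in siMPS1 against siNeg at 6 h, at 0.39 (SE 0.11, adjusted p = 0.0384). Single arrays decided that call: without siMPS1 6 h replicate 2 it was 0.304 (adjusted p = 0.243), without siNeg 6 h replicate 1 it was 0.508 (adjusted p = 0.0586), without siNeg 6 h replicate 2 it was 0.274 (adjusted p = 0.273), and it was lost too without either siNeg array at 24 h. At 24 h the value was -0.27 (adjusted p = 0.13). The second AKR1C1 probe set above the filter gave 1.24 at 48 h for siMPS1 minus siNeg (adjusted p = 2.8e-05) and -1.28 for siNeg minus Control (adjusted p = 9.65e-05). For siMPS1 minus Control at 48 h it gave -0.05 (limma adjusted p = 0.872), and for siMPS1 minus siNeg at 6 h 0.15 (limma adjusted p = 0.657). It thus did not share those 2 calls of the main probe set. Both AKR1C1 probe sets above the filter are of the kind Affymetrix marks as able to bind related transcripts. Over the 18 arrays they correlated at 0.953 to 0.980 with the 2 probe sets of AKR1C2, a near-identical neighbour, and at 0.489 to 0.506 with that of AKR1C3. Signal of AKR1C1 and AKR1C2 can therefore not be told apart here. The third AKR1C1 probe set was dim and did not pass the filter.

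AKR1C3, which reduces steroid and prostaglandin ketones, was close to level until 48 h. At 6 h its log2 signal was 5.14 and 5.08 in siMPS1, 4.93 and 4.89 in siNeg, and 5.04 and 5.16 in Control. The 24 h signal of AKR1C3 was 5.25 and 4.48 in siMPS1, 5.11 and 5.22 in siNeg, and 4.93 and 4.65 in Control. Its 48 h signal was 6.19 and 6.35 in siMPS1, 4.97 and 4.94 in siNeg, and 6.37 and 6.00 in Control. The siMPS1 and Control arrays at 48 h overlapped and lay above every other array, and the siNeg arrays at 48 h lay among those of 6 and 24 h. AKR1C3 at 48 h had a siMPS1 minus siNeg log2 fold change of 1.23 (SE 0.20, adjusted p = 0.000146), the siNeg minus Control value was -1.15 (SE 0.20, adjusted p = 0.000947) and the siMPS1 minus Control value was 0.08 (SE 0.20, adjusted p = 0.806), with a 95% interval from -0.337 to 0.502. The gene was not called in these comparisons at 6 or 24 h.

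AKR1B10, which reduces retinals and aldehydes, was dim and moved less. At 6 h its log2 signal was 5.61 and 5.10 in siMPS1, 5.62 and 5.25 in siNeg, and 5.44 and 5.55 in Control. AKR1B10 at 24 h had 5.31 and 5.36 in siMPS1, 5.10 and 5.19 in siNeg, and 4.87 and 5.16 in Control. AKR1B10 at 48 h had 5.33 and 5.56 in siMPS1, 4.79 and 5.05 in siNeg, and 5.65 and 5.58 in Control. At 48 h the siNeg arrays lay below all others of that time. The siNeg minus Control log2 fold change was -0.64 (SE 0.185, adjusted p = 0.0275), and the call was lost without siNeg 48 h replicate 1 (-0.528, adjusted p = 0.209), without Control 48 h replicate 1 (-0.609, adjusted p = 0.134) and without Control 48 h replicate 2 (-0.678, adjusted p = 0.0902). The siMPS1 minus siNeg value was 0.48 (SE 0.185, adjusted p = 0.058) and the siMPS1 minus Control value was -0.16 (adjusted p = 0.564). The gene was not called at 6 or 24 h in any of the 3 comparisons.

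GCLC and GCLM, whose products form 1 enzyme, parted at 48 h. For GCLC, the catalytic subunit, the log2 signal at 6 h was 7.57 and 7.24 in siMPS1, 7.40 and 7.41 in siNeg, and 7.36 and 7.48 in Control. GCLC at 24 h had 7.84 and 7.91 in siMPS1, 7.95 and 7.94 in siNeg, and 7.95 and 7.92 in Control. GCLC at 48 h had 7.85 and 7.81 in siMPS1, 7.19 and 7.30 in siNeg, and 7.59 and 7.55 in Control. The treatments overlapped at 6 h, the siMPS1 arrays lay just below the others at 24 h, and at 48 h siMPS1, Control and siNeg stood in that order with no overlap. The difference of siMPS1 from siNeg in GCLC at 48 h was 0.57 (SE 0.09, adjusted p = 0.000132). The siNeg minus Control value was -0.32 (SE 0.09, adjusted p = 0.0271) and was not called without siNeg 48 h replicate 1 (-0.266, adjusted p = 0.198) or without either Control array of 48 h. The siMPS1 minus Control value was 0.25 (SE 0.09, adjusted p = 0.0494); it was not called with the replicate number as a block (0.25, adjusted p = 0.0563) or under most other alternatives. A second, dimmer probe set of GCLC gave 0.24 for siMPS1 minus siNeg (adjusted p = 0.178) and -0.07 for siNeg minus Control (adjusted p = 0.808) at 48 h.

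For GCLM, the modifier subunit that lowers feedback inhibition by glutathione, the log2 signal at 6 h was 9.73 and 9.56 in siMPS1, 9.71 and 9.70 in siNeg, and 9.93 and 9.89 in Control. GCLM at 24 h had 10.02 and 9.81 in siMPS1, 10.21 and 10.14 in siNeg, and 10.15 and 10.16 in Control. GCLM at 48 h had 9.79 and 9.64 in siMPS1, 9.73 and 9.79 in siNeg, and 10.13 and 10.19 in Control. At 48 h the siMPS1 and siNeg arrays overlapped, and both lay below Control. The log2 fold change at 48 h was -0.04 for siMPS1 minus siNeg (SE 0.07, adjusted p = 0.732), with a 95% interval from -0.198 to 0.117. It was -0.40 for siNeg minus Control (SE 0.07, adjusted p = 0.00191) and -0.44 for siMPS1 minus Control (SE 0.07, adjusted p = 0.000328). Both of these calls were kept under every alternative tried.

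GCLM was also lower in siMPS1 than in siNeg cells at 24 h, at -0.26 (SE 0.07, adjusted p = 0.032). This value was -0.153 without siMPS1 24 h replicate 2 (adjusted p = 0.331), -0.221 without siNeg 24 h replicate 1 (adjusted p = 0.214) and -0.300 without siNeg 24 h replicate 2 (adjusted p = 0.0734). Against Control, GCLM was at -0.27 at 6 h (limma adjusted p = 0.0219); at 24 h it was at -0.24 (limma adjusted p = 0.0407). Leaving out siMPS1 6 h replicate 2 took the first to -0.184 (adjusted p = 0.211), and leaving out siMPS1 24 h replicate 2 took the second to -0.135 (adjusted p = 0.366). The first call was also lost without Control 6 h replicate 1 (-0.251, adjusted p = 0.113) or 2 (-0.287, adjusted p = 0.0786), and the second without either Control array of 6 or 24 h or either siNeg array of 6 h.

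NQO1, which reduces quinones with 2 electrons and so avoids semiquinone radicals, had 3 probe sets that did not move alike. With the main probe set the log2 signal at 48 h was 9.98 and 10.12 in siMPS1, 9.67 and 9.69 in siNeg, and 9.56 and 9.87 in Control. The siMPS1 arrays lay above all the others of that time, and those of siNeg lay between the 2 Control arrays. The log2 fold change was 0.37 for siMPS1 minus siNeg (SE 0.09, adjusted p = 0.00447), -0.04 for siNeg minus Control (SE 0.09, adjusted p = 0.837) and 0.33 for siMPS1 minus Control (SE 0.09, adjusted p = 0.0103). The first was not called without siMPS1 48 h replicate 2 (0.302, adjusted p = 0.0586), and the last was not called without that array (0.264, adjusted p = 0.104) or without Control 48 h replicate 1 (0.177, adjusted p = 0.193). At 6 and 24 h the 6 group means of this probe set ran from 9.67 to 10.0, and the gene was not called between treatments.

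The other NQO1 probe sets gave 0.14 (adjusted p = 0.261) and -0.06 (adjusted p = 0.541) for siMPS1 minus siNeg at 48 h, each fitted on its own among 11824 probe sets. For siMPS1 minus Control at 48 h they gave -0.07 (limma adjusted p = 0.625) and -0.14 (limma adjusted p = 0.116), against 0.33 with the main probe set. At 24 h they were lower in siMPS1 than in siNeg cells, at -0.34 (adjusted p = 0.0244) and -0.25 (adjusted p = 0.0173), and higher in siNeg than in Control cells, at 0.50 (adjusted p = 0.0121) and 0.47 (adjusted p = 0.0027). The main probe set gave 0.09 and -0.02 for the same 2 comparisons at 24 h. With the 3 probe sets averaged, the siMPS1 minus siNeg value at 48 h was 0.152 (limma adjusted p = 0.108). The averaged siMPS1 minus Control value at 48 h was 0.0416 (limma adjusted p = 0.71). For siNeg minus Control at 24 h the average was 0.316 (limma adjusted p = 0.0326). The direction for NQO1 thus depended on the probe set.

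TXNRD1, which keeps thioredoxin reduced, had a narrow range. Its log2 signal at 6 h was 11.77 and 11.80 in siMPS1, 11.63 and 11.63 in siNeg, and 11.78 and 11.72 in Control. At 24 h it was 11.35 and 11.46 in siMPS1, 11.52 and 11.48 in siNeg, and 11.47 and 11.49 in Control. At 48 h it was 11.19 and 11.31 in siMPS1, 11.27 and 11.18 in siNeg, and 11.38 and 11.50 in Control. At 48 h the siMPS1 and siNeg arrays overlapped and lay below Control. The log2 fold change at 48 h was 0.03 for siMPS1 minus siNeg (SE 0.06, adjusted p = 0.773), with a 95% interval from -0.100 to 0.156, and was -0.21 for siNeg minus Control (SE 0.06, adjusted p = 0.0283) and -0.18 for siMPS1 minus Control (SE 0.06, adjusted p = 0.032). Without Control 48 h replicate 2 the last 2 values were -0.151 (adjusted p = 0.215) and -0.123 (adjusted p = 0.245). The siNeg minus Control call was also lost without siNeg 48 h replicate 2 (-0.168, adjusted p = 0.157), and the siMPS1 minus Control call without siMPS1 48 h replicate 1 (-0.125, adjusted p = 0.247).

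The response to the siRNA against MPS1, relative to siNeg, was tested between times. From 24 to 48 h it rose in 4 of the 8 genes, where 15.8% of all genes were called: HMOX1, AKR1C1 at 2.12 (SE 0.16, adjusted p = 1.20e-07), AKR1C3 at 1.497 (SE 0.28, adjusted p = 0.00144) and GCLC at 0.64 (SE 0.13, adjusted p = 0.00239). From 6 to 48 h it rose in 5 of 8, where 20.2% of all genes were called, with NQO1 as the fifth gene at 0.45 (SE 0.13, adjusted p = 0.0187). The NQO1 call was lost without the intensity trend and without siMPS1 6 h replicate 1, siMPS1 48 h replicate 2, siNeg 6 h replicate 1 or siNeg 48 h replicate 1, with values of 0.302 to 0.521 over 28 settings (adjusted p up to 0.0785), and the AKR1C3 call from 6 to 48 h was lost without siMPS1 48 h replicate 2 (adjusted p = 0.0506). From 6 to 24 h it fell in 2 of 8, HMOX1 and AKR1C1, where 3.68% of all genes were called. HMOX1 kept that call in all 28 settings, while AKR1C1 kept it in 22 (adjusted p up to 0.101) and lost it without the intensity trend and without siMPS1 6 h replicate 2, siMPS1 24 h replicate 1, siNeg 6 h replicate 2 or either siNeg array of 24 h. AKR1B10, GCLM and TXNRD1 were called in none of these 3. The same differences for siNeg minus Control were added after the data were seen. From 24 to 48 h that value fell in 4 of 8 genes, where 10.3% of all genes were called: HMOX1 at -1.96 (adjusted p = 4.90e-09), AKR1C1 at -1.52 (adjusted p = 1.11e-05), AKR1C3 at -1.49 (adjusted p = 0.003) and GCLM at -0.41 (adjusted p = 0.0192). The GCLM call was kept in 22 of 28 settings (adjusted p up to 0.0814) and lost without the intensity trend and without either Control array of 24 h, Control 48 h replicate 2, siNeg 24 h replicate 1 or siNeg 48 h replicate 1. From 6 to 24 h 0 of 8 were called in limma, with 2 at an unadjusted p under 0.05, where 5.77% of all genes were called. From 6 to 48 h 2 of 8 fell, HMOX1 at -1.78 and AKR1C1 at -1.18, where 4.74% of all genes were called.

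Untransfected cells changed with time as well, and the members did not share 1 course. From 6 to 24 h 5 of 8 genes were called in siMPS1, 5 in siNeg and 6 in Control, where 47.4%, 44.3% and 43.1% of all genes were called. HMOX1 rose in this interval by 0.44 in siMPS1, 1.07 in siNeg and 0.88 in Control, and AKR1C1 rose by 1.70, 2.36 and 2.02, each called in limma. From 24 to 48 h 3 of 8 were called in siMPS1, 5 in siNeg and 4 in Control, where 24.4%, 29.2% and 19.6% of all genes were called. In this interval the HMOX1 value was 0.14 in siMPS1 (adjusted p = 0.179), -2.44 in siNeg (adjusted p = 3.07e-13) and -0.48 in Control (adjusted p = 0.000289). AKR1C3 rose by 1.31 in siMPS1 (adjusted p = 0.000155) and 1.30 in Control (adjusted p = 0.000222), and its value was -0.19 in siNeg (adjusted p = 0.529). TXNRD1 fell between 6 and 48 h by 0.53 in siMPS1, 0.41 in siNeg and 0.31 in Control, so it ran against AKR1C1, which rose by 2.48, 1.025 and 2.20. From 6 to 48 h 5, 5 and 6 of 8 genes were called, where 50.6%, 51.9% and 46.9% of all genes were.

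Across the 18 arrays GCLC was the member whose signal was most like that of HMOX1. Pearson's r was 0.850 for GCLC (Spearman's rho 0.909), which ranked 11 among the 7827 other genes, and 0.582 for AKR1C1 (rho 0.742). It was 0.478 for GCLM, 0.223 for AKR1C3, 0.212 for AKR1B10, 0.0996 for TXNRD1 and 0.00503 for NQO1. These values describe 18 arrays that make 9 pairs, share their scaling within an array and include 2 arrays far from the rest for HMOX1, both of siNeg at 48 h. On the other 16 arrays r was 0.899 for GCLC, 0.820 for AKR1C1, 0.512 for GCLM and 0.112 for AKR1C3, while it was -0.518 for AKR1B10, -0.675 for TXNRD1 and -0.496 for NQO1. The values for NQO1 are those of its main probe set, and its probe sets did not move alike. GCLC, AKR1C1, GCLM and AKR1C3 thus had a positive r with and without the siNeg arrays of 48 h. Over all 18 arrays AKR1C1 ranked 379, GCLM 702 and AKR1C3 2146 of the 7827 other genes. On the 16 arrays GCLC ranked 32, AKR1C1 214, GCLM 2051 and AKR1C3 3966. Many other genes were therefore at least as like HMOX1 as GCLM and AKR1C3 were. The other 3 members, NQO1 by its main probe set, had a negative r on the 16 arrays.

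**Figure D3:**
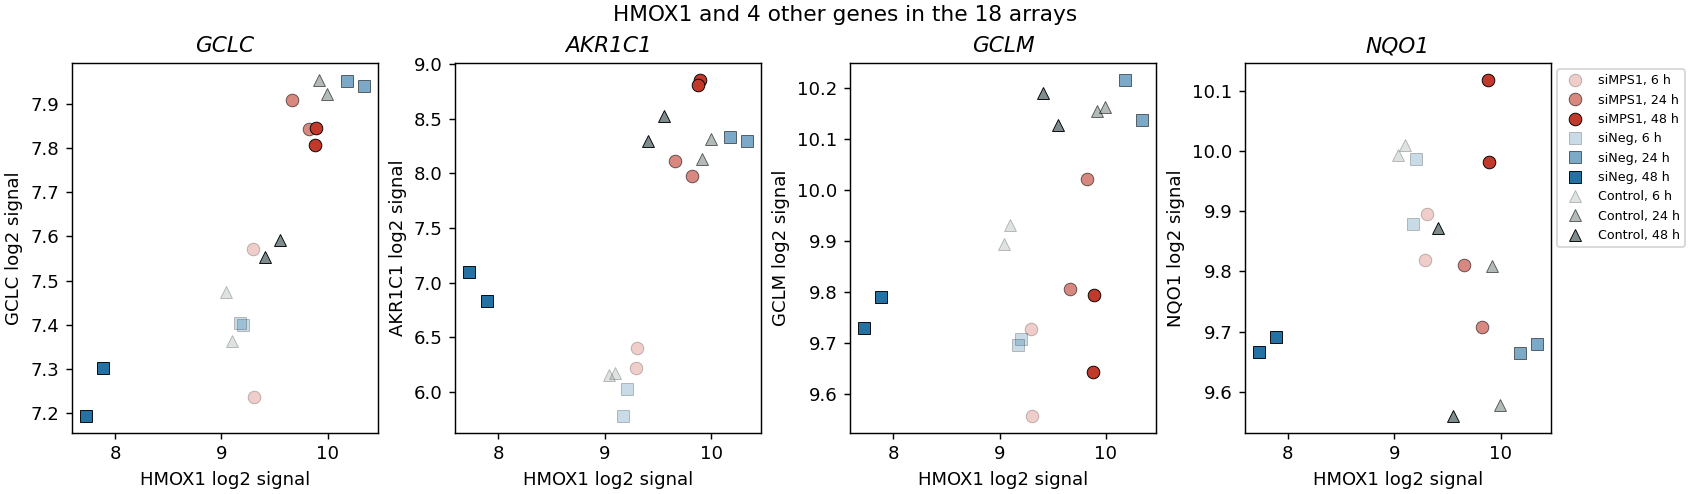
Log2 signal of the main probe sets of GCLC, AKR1C1, GCLM and NQO1 (vertical axes, each with its own scale) against that of HMOX1 (horizontal axis) in the 18 arrays. Colour and shape give the treatment and the depth of colour the time. The siNeg arrays of 48 h lie at the far left of each panel, at 7.73 and 7.89 for HMOX1, and r over all 18 arrays is 0.850 for GCLC, 0.582 for AKR1C1, 0.478 for GCLM and 0.00503 for NQO1.

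The 5 genes of the whole table with the highest r with HMOX1 were NFAT5 (0.902), HIPK2 (0.890), ZFYVE26 (0.890), DDIT4 (0.879) and UST (0.868). NFAT5 is a transcription factor of the osmotic response, HIPK2 a nuclear kinase and DDIT4 an inhibitor of mTORC1. On the 16 arrays without siNeg at 48 h these values were 0.621, 0.602, 0.797, 0.824 and 0.567, and NFAT5 ranked 1405. Likeness over all arrays thus leaned on the 2 siNeg arrays of 48 h for NFAT5, HIPK2 and UST more than for ZFYVE26 and DDIT4.

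Regulators of NRF2 were read from a list of 12 genes, of which 10 were tested. At 48 h 4 of the 10 were called in siMPS1 against siNeg, all higher, where 29.2% of all genes were called and 15.7% were higher, with a median of 0.313 against 0.0256 for all genes. They were MAFG at 0.80 (SE 0.07, adjusted p = 1.64e-07) and MAFF at 0.72 (SE 0.07, adjusted p = 6.75e-07), which encode small MAF partners of NRF2, SQSTM1 at 0.46 (SE 0.05, adjusted p = 4.29e-06), the p62 receptor that draws KEAP1 into autophagy, and NFE2L1 at 0.37 (SE 0.10, adjusted p = 0.00915), a related factor. NFE2L2 itself was at -0.02 (adjusted p = 0.898) and KEAP1 at 0.25 (adjusted p = 0.0682); against Control, siMPS1 values were -0.16 and 0.25 (adjusted p = 0.204 and 0.0753). The log2 signal of MAFG at 48 h was 8.20 and 8.23 in siMPS1, 7.41 and 7.40 in siNeg, and 7.70 and 7.80 in Control, with no overlap. In siNeg against Control 4 of the 10 were called at 48 h, all lower, where 12.9% of all genes were called and 6.11% were lower: MAFG at -0.34, MAFF at -0.45, SQSTM1 at -0.23 and BACH1, the repressor of HMOX1, at -0.64 (adjusted p = 0.0219). In siMPS1 against Control MAFG, MAFF, SQSTM1 and NFE2L1 were higher at 48 h, at 0.46, 0.28, 0.23 and 0.51.

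At 6 h 2 regulators were higher in siMPS1 than in siNeg cells, MAFG at 0.41 (adjusted p = 0.00309) and NFE2L1 at 0.52 (adjusted p = 0.00664), and CUL3 was lower at -0.25 (adjusted p = 0.0323), where 7.70% of all genes were called. The count of higher regulators was 0 without siMPS1 6 h replicate 2 and 1 without siNeg 6 h replicate 2, and CUL3 lost its call when any 1 of the 4 siMPS1 and siNeg arrays of 6 h was left out. At 24 h 0 of the 10 were called in limma, where 10.9% of all genes were, with 3 at an unadjusted p under 0.05. The smallest p belonged to SQSTM1, at -0.16 (limma adjusted p = 0.0724), and to BTRC, a ubiquitin ligase subunit, at 0.98 (limma adjusted p = 0.103).

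**Figure D4:**
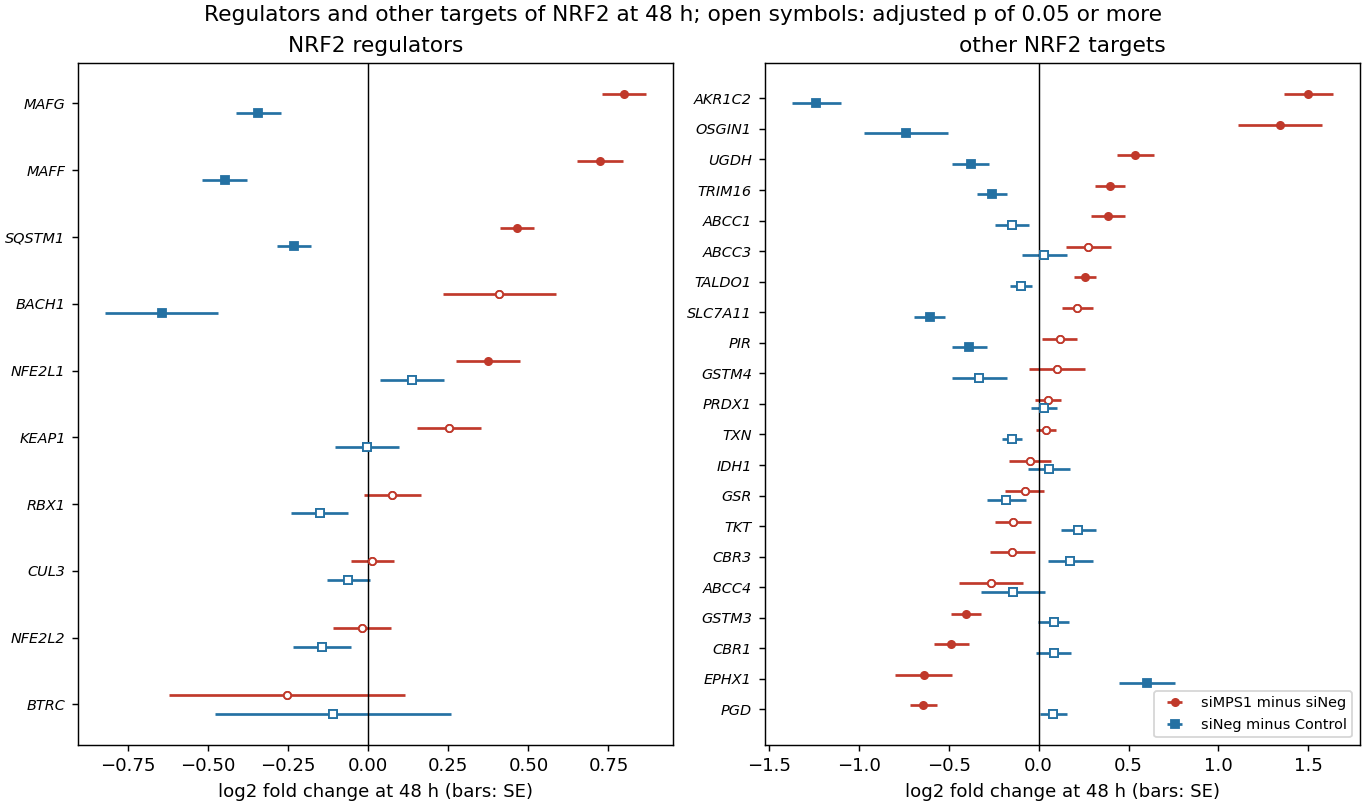
Log2 fold changes at 48 h with their SE from limma (horizontal axis) for the 10 tested regulators of NRF2 (left) and the 21 other tested targets (right), with siMPS1 minus siNeg as circles above siNeg minus Control as squares in each row; filled symbols passed an adjusted p of 0.05. MAFG and MAFF lie at 0.80 and 0.72 for siMPS1 minus siNeg, AKR1C2 and OSGIN1 lie at 1.498 and 1.34, and PGD lies at -0.64.

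Of 29 other listed targets of NRF2, 21 were tested and moved in both directions. At 48 h 6 were higher and 4 lower in siMPS1 than in siNeg cells, where 29.2% of all genes were called and 15.7% were higher, with a median of 0.0506, close to the 0.0256 of all genes. The higher ones included AKR1C2 at 1.498 (SE 0.14, adjusted p = 2.85e-07), OSGIN1, a growth inhibitor induced by oxidative stress, at 1.34 (SE 0.23, adjusted p = 0.000288), and UGDH, which makes UDP-glucuronate, at 0.54 (SE 0.10, adjusted p = 0.00066). Signal of AKR1C2 cannot be told apart from that of AKR1C1, so its values here are not a result separate from those of AKR1C1. PGD, which makes NADPH in the pentose phosphate pathway, was lower at -0.64 (SE 0.07, adjusted p = 4.44e-06). In siMPS1 against Control AKR1C2 was at 0.26 (adjusted p = 0.173), OSGIN1 at 0.61 (adjusted p = 0.0624) and UGDH at 0.16 (adjusted p = 0.271) at 48 h. In siNeg against Control 6 of 21 were lower and 1 higher at 48 h, where 12.9% of all genes were called and 6.11% were lower, with a median of -0.141 against 0.0141. AKR1C2 was at -1.24 (adjusted p = 1.34e-05), SLC7A11, the cystine importer that feeds glutathione synthesis, was at -0.60 (adjusted p = 0.000157), and EPHX1, a microsomal epoxide hydrolase, was higher at 0.60 (adjusted p = 0.017). The count of lower targets ran from 2 to 5 when single arrays were left out, with 2 without Control 48 h replicate 1 and 3 without Control 48 h replicate 2 or siNeg 48 h replicate 1. EPHX1 was not called without Control 48 h replicate 1 or siNeg 48 h replicate 1. In siMPS1 against Control 4 of 21 were called at 48 h, all lower, where 27.5% of all genes were called and 12.2% were lower. They were PGD at -0.56, CBR1 at -0.40, SLC7A11 at -0.39 and GSTM3 at -0.32.

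At the earlier times few of these targets were called in siMPS1 against siNeg. PRDX1, a peroxiredoxin, was the 1 target called at 6 h, higher at 0.31 (adjusted p = 0.0152), where 7.70% of all genes were called, and was not called without siMPS1 6 h replicate 2 or either siNeg array of 6 h. At 24 h the carbonyl reductase CBR3 was lower at -0.46 (adjusted p = 0.0241), as was EPHX1 at -0.54 (adjusted p = 0.0341), where 10.9% of all genes were called. The count of lower targets at 24 h ran from 0 to 3 when single arrays were left out, with 0 without either siMPS1 array of 24 h or siNeg 24 h replicate 2, and 1 without siNeg 24 h replicate 1. In siNeg against Control 0 of the 21 were called at 6 or at 24 h in limma, with 4 and 1 at an unadjusted p under 0.05. Of all genes, 3.82% and 0.933% were called there.

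The antioxidant enzymes outside the NRF2 lists, 22 tested, moved both ways too. At 48 h 4 were higher and 3 lower in siMPS1 than in siNeg cells, where 29.2% of all genes were called and 15.7% were higher, with a median of 0.0791 against 0.0256 for all genes. GLRX, which reduces mixed disulfides with glutathione, was lower at 24 h at -0.77 (SE 0.17, adjusted p = 0.00622) and higher at 48 h at 0.85 (SE 0.17, adjusted p = 0.000817). Its call at 24 h, where 10.9% of all genes were called, was lost without siMPS1 24 h replicate 2 and without siNeg 24 h replicate 2. MSRA, a methionine sulfoxide reductase, was higher at 48 h at 0.51 (adjusted p = 0.0027). The mitochondrial peroxiredoxin PRDX3 was lower at -0.52 (adjusted p = 1.56e-05) and catalase, CAT, at -0.55 (adjusted p = 0.000101). The 48 h values of siMPS1 against Control were 0.39 for GLRX (adjusted p = 0.0891) and 0.08 for MSRA (adjusted p = 0.668), neither called, and -0.56 for PRDX3 and -0.49 for CAT (adjusted p = 1.18e-05 and 0.0004). GPX3, the secreted glutathione peroxidase, was higher at 6 h at 0.998 (adjusted p = 0.0161) but not without siMPS1 6 h replicate 2 or either siNeg array of 6 h, and TXNIP, which binds thioredoxin, was higher at 24 h at 0.95 (adjusted p = 0.000126). In siNeg against Control 2 of the 22 were called at 48 h, where 12.9% of all genes were, GLRX2 lower at -0.35 and MSRA lower at -0.43; 1 was lower without Control 48 h replicate 2 or siNeg 48 h replicate 1.

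Genes of heme and iron handling, to which the HMOX1 reaction belongs, moved in both directions. Of 16 tested, 3 were higher and 3 lower in siMPS1 than in siNeg cells at 48 h, where 29.2% of all genes were called and 15.7% were higher. Without siNeg 48 h replicate 2 the count of higher ones was 1. In heme synthesis UROD was higher at 0.54 (SE 0.06, adjusted p = 6.35e-06), while CPOX was lower at -0.73 (SE 0.16, adjusted p = 0.00216) and FECH, which inserts the iron, was lower at -0.66 (SE 0.15, adjusted p = 0.00264). FTL, the light chain of the iron store ferritin, was higher at 0.31 (SE 0.08, adjusted p = 0.00621). Of the 2 genes named for biliverdin reductases, BLVRA was lower at -0.64 (limma adjusted p = 0.0178) and BLVRB higher at 0.32 (limma adjusted p = 0.0151). In siMPS1 against Control at 48 h UROD was at 0.44, CPOX at -0.70, FECH at -0.58 and FTL at 0.25, all called (adjusted p up to 0.0263), while BLVRA was at -0.19 and BLVRB at 0.14 (adjusted p = 0.511 and 0.305). In siNeg against Control 0 of the 16 were called at 48 h in limma, where 12.9% of all genes were, with 1 at an unadjusted p under 0.05. HMOX1 was called there. SLC11A2, an iron importer, was lower in siMPS1 than in siNeg cells at 6 h, at -0.51 (limma adjusted p = 0.025), a call lost without siMPS1 6 h replicate 2 or siNeg 6 h replicate 2. At 24 h 0 of 16 were called in limma, where 10.9% of all genes were, with 3 at an unadjusted p under 0.05. The smallest p belonged to BLVRA at -0.58 (limma adjusted p = 0.0613) and to ALAS1, the first enzyme of heme synthesis, at -0.23 (limma adjusted p = 0.0808).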

How the data were processed

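The deposited table held 1 log2 MAS5 signal per probe set and array. The name MAS5 comes from the submitters' processing notes. No source used here states the log base; read as log2, the deposited values gave signals with a 2% trimmed mean of 100.122 to 100.134 in every array. Deposited values ran from -5.83 to 13.0, with array medians from 4.30 to 4.56, and 250 ng of RNA was labelled, per the labels. Detection calls and scan times were not used here, and the arrays per group limit the precision.

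Of 22277 probe sets, 62 were controls, 19064 named 1 gene, 1043 several and 2108 none, and 19052 matched RefSeq by identifier. Probe sets naming 1 gene were kept, the lowest 40% by mean were left out, and the brightest per gene was taken, leaving 7828 genes. Log2 of the signal plus a pseudocount of 3 was fitted with 9 group means over 18 arrays in limma 3.58.1 (R 4.3.3), with 9 residual and 8.56 prior degrees of freedom and an intensity trend. Tests were two-sided with Benjamini-Hochberg adjustment within each comparison. The fit was run on simulated data with independent noise and no differences between whole arrays. That run does not bear on the differences between arrays at 48 h. Deposited values of replicates correlated at 0.933 to 0.948, and none were identical. Promoters were aligned with Biopython 1.88.

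The members and lists (TTK, NRF2 regulators, other NRF2 targets, other antioxidant enzymes, heme and iron, cell markers) were chosen with earlier results of these data known. Of each list the 4 called genes with the smallest p for siMPS1 minus siNeg at each time were named, or, where none was called, the 2 with the smallest p; the 5 genes most like HMOX1 were named by r. BLVRA and BLVRB at 48 h, NFE2L2 and KEAP1, and genes named only against Control, were chosen after their values were seen. Alternatives were other pseudocounts (1 and 11), median centring, quantile normalization, a filter at the lowest 60%, no filter, averaging probe sets, no intensity trend, a replicate block, only the compared groups and leaving out each array. Added after the data were seen were r without the 2 farthest arrays, the siNeg minus Control differences between times and fits of single probe sets.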

Additional observations from a re-analysis of the deposited data

Results flagged for a closer look

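In 11 cases the response to the siRNA against MPS1, siMPS1 minus siNeg, differed between 2 times by the test of that difference in limma, out of 8 genes and 3 pairs of times. The share of all genes called was 3.68% for 24 h minus 6 h, 15.8% for 48 h minus 24 h and 20.2% for 48 h minus 6 h. These are log2 differences of 2 log2 fold changes, and the siNeg arrays of 48 h enter each value that includes 48 h.

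HMOX1 differed by -0.63 at 24 h minus 6 h, by 2.58 at 48 h minus 24 h and by 1.95 at 48 h minus 6 h (adjusted p = 0.003, 4.73e-11 and 5.24e-09). AKR1C1 differed by -0.66, 2.12 and 1.45 for the same pairs of times (adjusted p = 0.0233, 1.20e-07 and 8.03e-06). HMOX1 and AKR1C1 were the 2 members called in all 3 pairs. At 24 h minus 6 h HMOX1 was called in all 28 alternative settings, and AKR1C1 in 22 of 28, with adjusted p up to 0.101; the call was lost in 5 of the settings that left out 1 array and in the one without the intensity trend.

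AKR1C3 differed by 1.497 at 48 h minus 24 h and by 1.04 at 48 h minus 6 h (adjusted p = 0.00144 and 0.0139). GCLC differed by 0.64 and 0.57 for these pairs (adjusted p = 0.00239 and 0.00469). NQO1 differed by 0.45 at 48 h minus 6 h (adjusted p = 0.0187), with the main probe set, and was called in 23 of 28 settings, with adjusted p up to 0.0785. AKR1C3 at 48 h minus 6 h lost its call without siMPS1 48 h replicate 2 (adjusted p = 0.0506).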

How the results depend on the processing

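Of 24 calls of members over the 9 comparisons between treatments, 11 were kept under all settings that tested the gene, of 28 settings tried; AKR1C3 and AKR1B10 were not tested with the lowest 60% left out. Kept were HMOX1, AKR1C1, AKR1C3 and GCLC for siMPS1 minus siNeg at 48 h, HMOX1 at 24 h, HMOX1, AKR1C1, AKR1C3 and GCLM for siNeg minus Control at 48 h, and HMOX1 and GCLM for siMPS1 minus Control at 48 h. The HMOX1 log2 fold change for siMPS1 minus siNeg at 48 h ran from 1.98 to 2.14. The number of members called there ran from 4 to 6.

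Quantile normalization gave -0.268 for HMOX1 in siMPS1 minus Control at 24 h (adjusted p = 0.024), 3 members called there, and turned TXNRD1 to -0.195 in siMPS1 minus Control at 6 h and to 0.205 for the response at 48 h minus 6 h. Median centring gave HMOX1 0.0369 in siMPS1 minus Control at 6 h and 0.373 in siNeg minus Control at 24 h (adjusted p = 0.786 and 0.0387), turned TXNRD1 to -0.159 in siMPS1 minus Control at 6 h, and called 0 and 1 members in siMPS1 minus siNeg at 6 and 24 h, 3 and 1 in siNeg minus Control at 6 and 24 h, 0 in siMPS1 minus Control at 24 h and 3 for siNeg at 48 h minus 6 h. It moved the median of all genes to -0.126 for siNeg minus Control and -0.156 for siMPS1 minus Control at 6 h. With median centring 491 and 738 of all genes were called in siMPS1 minus siNeg at 6 and 24 h. In siNeg minus Control 1129 and 134 were called at these times. In siMPS1 minus Control at 24 h the count was 1118, and 962 with quantile normalization. Without a filter HMOX1 was at 0.231 in siMPS1 minus Control at 6 h (adjusted p = 0.0666), and 0 and 1 members were called in siMPS1 minus siNeg at 6 and 24 h and 1 and 0 in siMPS1 minus Control. With the lowest 60% left out HMOX1 was called at 0.304 in siNeg minus Control at 24 h (adjusted p = 0.041), 1 member was called there, and 2 for Control at 48 h minus 24 h. Of all genes, 138 were called in siNeg minus Control at 24 h with that filter. Without a filter 388 and 721 of all genes were called in siMPS1 minus siNeg at 6 and 24 h, and 1008 and 790 in siMPS1 minus Control.

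Averaging probe sets turned NQO1 to 0.316 in siNeg minus Control at 24 h, 0.0125 in siNeg at 24 h minus 6 h and 0.0182 in Control at 48 h minus 6 h, and called 0 members in siMPS1 minus siNeg at 6 h and 1 in siNeg minus Control at 24 h. Without the intensity trend HMOX1 was at 0.231 in siMPS1 minus Control at 6 h (adjusted p = 0.1), and 0 and 1 members were called in siMPS1 minus siNeg at 6 and 24 h, 0 and 0 in siMPS1 minus Control, and 1 for the response at 24 h minus 6 h. The count of all genes fell as well. It was 169 and 625 in siMPS1 minus siNeg at 6 and 24 h, against 603 and 857 as reported. In siMPS1 minus Control it was 883 and 750, against 1297 and 993. With only the compared groups HMOX1 was called at 0.304 in siNeg minus Control at 24 h (adjusted p = 0.0368), with 0 and 1 members in siMPS1 minus siNeg at 6 and 24 h, 1 and 1 in siNeg minus Control, and 0 in siMPS1 minus Control at 24 h. The cause of these changes was not tested.

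Leaving out single arrays gave 0 to 1 members for siMPS1 minus siNeg at 6 h and 1 to 2 at 24 h, 0 to 1 for siNeg minus Control at 24 h and 4 to 7 at 48 h, and 0 to 2, 0 to 2 and 3 to 6 for siMPS1 minus Control at 6, 24 and 48 h. It gave 1 to 2 for the response at 24 h minus 6 h, 3 to 5 at 48 h minus 6 h, 3 to 5 for siNeg at 48 h minus 6 h and 2 to 4 for Control at 48 h minus 24 h. HMOX1 ran from 0.202 to 0.26 in siMPS1 minus Control at 6 h, from -0.296 to -0.132 at 24 h, and from 0.225 to 0.382 in siNeg minus Control at 24 h. A group left with 1 array was assumed to vary like the others. The ranges given next, for all genes, cover all settings tried and not only those that left out 1 array. Of their ends, 883 and 138 came with the lowest 60% left out, and 3 came without the intensity trend. Median centring gave the ends 1129, 2246 and 1118. The count of all genes called ran from 80 to 684 (603 as reported) for siMPS1 minus siNeg at 6 h, 360 to 883 (857) at 24 h and 1655 to 2360 (2284) at 48 h, from 61 to 1129 (299), 3 to 138 (73) and 440 to 1047 (1012) for siNeg minus Control, and from 478 to 2246 (1297), 448 to 1118 (993) and 1415 to 2202 (2153) for siMPS1 minus Control.

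The labels do not say whether the replicate numbers pair the arrays. The replicate 1 minus replicate 2 differences of 2 groups correlated between -0.14 and 0.10 over 36 pairs of groups. The 18S rRNA signal was higher in replicate 2 in most groups. These values cannot settle whether the arrays were paired. With the replicate block HMOX1 was at 2.06 for siMPS1 minus siNeg at 48 h (adjusted p = 4.25e-11), and among the 9 comparisons the call of GCLC for siMPS1 minus Control at 48 h was lost (0.25, adjusted p = 0.0563) and no other changed. With 2 arrays a group, differences of dim genes such as AKR1C3 and AKR1B10 carried an SE of 0.199 and 0.185, against 0.06 for TXNRD1.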

Other observations

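On the 16 arrays without siNeg at 48 h, a different set of genes was most like HMOX1. They were named after their values were seen: BHLHE41 (r 0.964), GLA (0.931), DDIT3 (0.931), HOMER3 (0.927) and KDELR3 (0.925). DDIT3 encodes CHOP, a transcription factor of the integrated stress response, and KDELR3 a receptor that returns proteins to the endoplasmic reticulum. Over all 18 arrays DDIT3 ranked 12, with r 0.849 and a Spearman's rho of 0.965, and HOMER3 ranked 2131, with r 0.226. At 48 h DDIT3 was higher in siMPS1 than in siNeg cells at 1.12 (SE 0.09, adjusted p = 4.31e-08) and KDELR3 at 0.65 (SE 0.09, adjusted p = 3.43e-05), while HOMER3 was at -0.11 (adjusted p = 0.286). In siMPS1 against Control at 48 h DDIT3 was at 0.33 (SE 0.09, adjusted p = 0.0078), KDELR3 at 0.51 (adjusted p = 0.000455) and HOMER3 at 0.07 (adjusted p = 0.512). DDIT3 was lower in siNeg than in Control cells at -0.78 (adjusted p = 1.16e-05), while KDELR3 was at -0.14 (adjusted p = 0.377) and HOMER3 at 0.18 (adjusted p = 0.117). These r values describe arrays in pairs and carry no test.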
